A study of Rattus norvegicus with 4 samples.

Results

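The genes described here are 10 rat chaperones and co-chaperones that heat shock factor 1 (HSF1) is known to induce: Hspa1a, Hspa8, Hsph1, Bag3, Hsp90aa1, Hspd1, Hspe1, Hspb1, Hspb8 and Zfand2a. They were chosen by name, with earlier results of these data known. Each was found through the RefSeq accession of its array probe, with the brightest probe standing for a gene that had several. All 10 had a named probe, and all 10 were well above background on every array, among 6028 named genes that were well above background on at least 1 array. Total RNA came from NRK-52E, an established line of rat kidney tubular epithelial cells grown to confluence in DMEM with serum. The 4 groups were a control culture that received DMEM with 0% hydrogen peroxide (H2O2) and cultures that received 0.003%, 0.006% or 0.009% H2O2 for 1 h. All 4 were then washed with PBS and kept for 12 h in serum-free DMEM, so that serum withdrawal is common to every group, the control included. The study set out to find molecules that dying cells release, and its labels describe the peroxide as a means to induce cell death. Each dose is 1 culture on 1 single-colour Agilent array, with no replicate, so no difference between 2 doses carries a p-value.

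Cells keep HSF1 inactive in complexes with chaperones. When misfolded or oxidised proteins take those chaperones up, HSF1 is freed, forms trimers and binds heat shock elements, which are inverted repeats of the unit GAA spaced by a pair of bases. Its targets hold unfolded proteins (small heat shock proteins and HSP40), refold them with ATP (HSP70, HSP90 and the HSP60 chaperonin) or pass them to the proteasome and to autophagy (BAG3, ZFAND2A). In tubular epithelium such genes are known to be induced by ischaemia, heavy metals and oxidants.

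The heat shock elements upstream of these genes are shown first, because they are the sequence that defines HSF1 targets. RefSeq promoter sequence on the rat assembly GRCr8, from 250 bases upstream to 50 bases downstream of the annotated start, was at hand for 9 of the 10 genes, Hsp90aa1 being the other. A match to 3 adjoining units of alternating direction, GAA or its reverse TTC, with 2 free bases between neighbours, was searched on both strands. It was present in 267 of 33469 rat promoter windows, or 0.798%. Such a match was present in 4 of the 9 windows here, those of Hsph1, Hspa8, Hspe1 and Hspd1. The stretches below end 1 base before the start and are written 5′ to 3′ on the strand of the gene, with matched heat shock units in capitals.

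Hsph1 upstream, chr12:10427238-10427367, + strand: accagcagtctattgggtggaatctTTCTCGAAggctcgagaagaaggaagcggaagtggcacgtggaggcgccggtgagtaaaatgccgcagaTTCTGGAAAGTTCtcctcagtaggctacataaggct

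Hspe1 upstream, chr9:64084227-64084326, + strand: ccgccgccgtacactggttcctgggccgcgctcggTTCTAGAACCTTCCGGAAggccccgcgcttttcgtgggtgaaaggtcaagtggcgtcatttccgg

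Hspa8 upstream, chr8:50080284-50080513, + strand: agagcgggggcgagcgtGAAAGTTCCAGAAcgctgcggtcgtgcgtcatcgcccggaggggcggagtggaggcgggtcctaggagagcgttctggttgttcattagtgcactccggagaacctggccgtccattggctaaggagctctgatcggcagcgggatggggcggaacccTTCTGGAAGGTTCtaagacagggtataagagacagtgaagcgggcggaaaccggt

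In Hsph1 the 3-unit match spans positions -36 to -24 from the start, and a match of 2 units lies at -105 to -98. Hspe1 carries 4 units in a row, from -65 to -48. Hspd1 is transcribed from the opposite strand, its start lying 290 bases from that of Hspe1, and the 2 windows overlap by 211 bases, so this run of 4 units is counted for both genes. Hspa8 holds 2 separate 3-unit matches, at -213 to -201 and at -55 to -43.

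A further 4 genes had matches to only 2 units, GAANNTTC or TTCNNGAA (N being any base), in their windows. GAANNTTC was found in 8.59% and TTCNNGAA in 8.77% of all windows, and either of them in 15.9% of all windows and in 8 of the 9 windows here. A 3-unit match contains both of them and is counted with each. The stretches around the matches of these 4 genes follow, with the matches in capitals.

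Hspb1 upstream, chr12:26432372-26432451, - strand: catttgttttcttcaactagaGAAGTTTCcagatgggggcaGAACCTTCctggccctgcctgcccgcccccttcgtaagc

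Bag3 upstream, chr1:192533300-192533379, + strand: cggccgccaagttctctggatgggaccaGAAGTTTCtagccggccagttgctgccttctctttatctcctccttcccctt

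Hspb8 upstream, chr12:45837238-45837307, + strand: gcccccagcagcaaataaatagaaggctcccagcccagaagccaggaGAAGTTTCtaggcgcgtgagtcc

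Zfand2a upstream, chr12:20275210-20275279, + strand: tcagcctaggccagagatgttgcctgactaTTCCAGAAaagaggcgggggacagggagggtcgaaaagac

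Hspb1 holds 2 such matches, at -129 to -122 and at -109 to -102, and the earlier of these reads the same, GAAGTTTC, as those of Bag3 at -132 to -125 and Hspb8 at -23 to -16. Zfand2a has 1 match, at -210 to -203. The Hspa1a window held no match to any motif searched, which says only that these letters are not in that window of the annotated start. The motif CCAAT occurred on either strand in 4 of the 9 windows (Hsph1, Hspa8, Bag3 and Zfand2a) and in 37.5% of all windows, and TATAAA in 0 of the 9 and in 14.2% of all windows. A match is a description of the letters and not a binding site.

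Signal and scaling moved with dose, which bears on every value that follows. The 75th percentile of the 43379 noncontrol spots, by which each array was scaled, was 180.3, 167.5, 158.1 and 121.2 intensity units from the control to 0.009% H2O2. The mean log2 signal of the spike-in control spots on the same arrays was 11.88, 11.96, 12.24 and 12.49, moving the other way, so that scaling to these spots would lower every log2 difference by 0.19, 0.54 and 1.18 at 0.003%, 0.006% and 0.009%. Between 51.8% and 54.9% of probes were well above background on each array, and 0 noncontrol spots were saturated. The arrays lay on 1 slide in the order of dose, and position and dose cannot be told apart. A level is given here as a multiple of the array's 75th percentile, and levels of the 10 genes are compared only within a probe. Levels of marker genes are also ranked and summed over probes, and there they depend on how bright each probe is.

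The epithelial label was checked against marker genes. Of 7 epithelial markers 5 were measured, and Krt8 was the strongest (59.3, 55.8, 43.6 and 36.9 times the 75th percentile, control to highest dose). Epcam was dim on all 4 arrays, Cdh1 was well above background on 2 and Cldn4 on 3. Krt18 and Krt19 were well above background on all 4 arrays, with levels of 0.0646, 0.30, 0.436 and 0.552 and of 0.369, 0.309, 0.741 and 1.15 in the same order, so at 0.009% both were above and Krt8 below the control. Of 7 proximal tubule markers 6 were measured, and 4 were well above background on all arrays: Aqp1 (log2 difference -2.11, -1.85 and -1.33), Ggt1 (-0.21, -0.19 and -0.08), Slc5a2 (0.37, 0.57 and 1.35) and Hnf4a (0.44, 0.87 and 1.25). The levels of Slc5a2 and Hnf4a were low, 0.144 and 0.101 in the control culture and 0.366 and 0.241 at 0.009%. Slc34a1 was dim on all 4 arrays, Lrp2 was well above background on 1 and Cubn on 3. Of 5 distal nephron markers 1 was measured, Aqp2, with log2 differences of 0.05, 0.26 and 0.58, while Umod, Slc12a3 and Calb1 were dim on all arrays. The summed level of 3 measured fibroblast markers (Col1a2, Col3a1 and Pdgfrb, of 7 listed) was 32.0 in the control culture and 9.20, 13.2 and 19.6 at the 3 doses, while Dcn and Lum were dim on all arrays. Of 5 endothelial markers 1 was measured, Kdr, with log2 differences of 0.92, 1.20 and 1.59, and Pecam1 was dim on all arrays. The level of Kdr was low, 0.107 in the control culture and 0.322 at 0.009%. Of 6 macrophage markers 5 were measured, and Cd14 made up most of their summed level (42.1, 27.2, 22.5 and 23.4). Cd68 had log2 differences of 0.28, 0.79 and 0.88, while Csf1r and Lyz2 were each well above background on 1 array and Adgre1 on 3. The part of these shifts in the results was not tested. In bulk RNA, fewer cells of a type and less RNA per cell cannot be told apart.

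All 10 genes were higher than in the control culture at every dose of H2O2 under 75th percentile scaling. At least 2-fold higher were 8 genes at 0.003%, 8 at 0.006% and 9 at 0.009% H2O2, and 0 were lower. The same rule was met by 14.9%, 14.9% and 16.5% of all features (genes, or probes without a gene name) at these doses, and by 16.1%, 14.8% and 13.8% of named genes. The median log2 difference from the control was 1.66, 1.77 and 1.96 over the 10 genes, against 0.03, 0.01 and 0.13 over all features. The exceptions were Hspb1 and Hspa8 at the lower doses and Hspa8 at 0.009%. These counts hold for this scaling: with spike-in scaling 4 genes, Hspa1a, Zfand2a, Hsph1 and Hspb8, were at least 2-fold higher at 0.009%. The genes were chosen with earlier results of these data known, so the counts and medians describe them and test nothing.

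**Figure D1:**
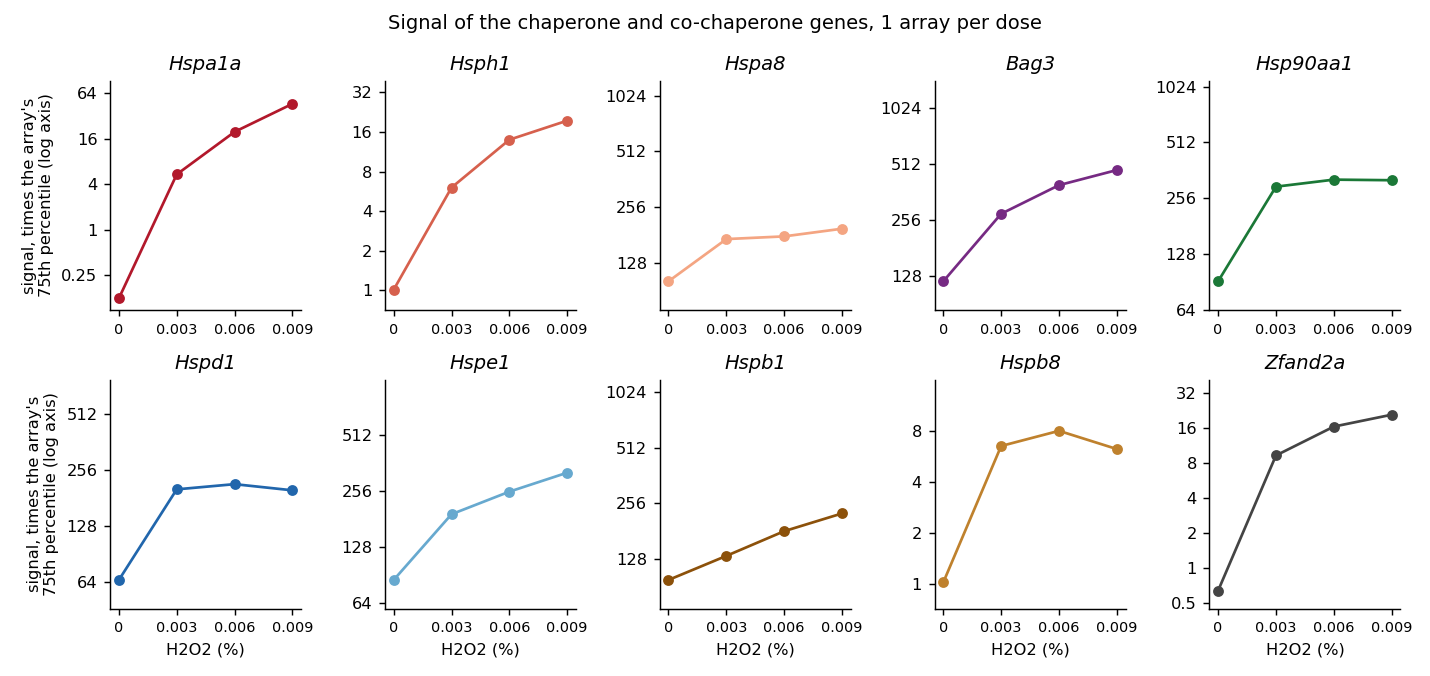
Level of each of the 10 genes (times the array's 75th percentile, log scale, a different range in each panel) against H2O2 dose in percent, 1 point per array. Hspa1a, Hsph1, Bag3, Hspb1, Hspe1, Hspa8 and Zfand2a are highest at 0.009%, and Hspb8, Hspd1 and Hsp90aa1 are highest at 0.006%. This holds for the brightest probe and this scaling, and the other Hspa8 probes are lower at 0.009% than at 0.006%.

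The HSP70 system holds the stress-inducible HSP70 Hspa1a, its constitutive relative Hspa8, the HSP110 nucleotide exchange factor Hsph1 and the BAG-domain exchange factor Bag3. Hspa1a had the largest differences of the 10 at every dose. Its level was 0.124 times the 75th percentile in the control culture and 5.38, 19.6 and 46.0 times at 0.003%, 0.006% and 0.009% H2O2. The control level was low but measured: its probe was printed at 10 spots, all 10 well above background, and their signals ran from 5433 to 5740 intensity units over the 8 spots kept at 0.009%, against 20.2 to 24.3 in the control culture. The SD between these spots was 0.03 to 0.09 on the log2 scale, and no spot of 1 array overlapped the range of another.

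The log2 differences of Hspa1a from the control were 5.44, 7.31 and 8.54, each with a spot error of 0.08, which is the scanner software's error estimate carried through the difference and holds no variation between cultures. As folds these were 43.4, 158 and 371. No feature of the 21459 compared at 0.009% had a larger log2 difference, while 2 of 20677 did at 0.006% and 5 of 20895 at 0.003%. With the background modelled by normexp, which here adds an offset of 50 to every signal, the log2 differences were 3.57, 5.35 and 6.51. The fold thus rests on how the dim control signal is treated, the chosen offset included. A second Hspa1a probe was not well above background in the control culture, where it gave only bounds, of at least 3.93, 5.72 and 6.72 on the log2 scale. The RefSeq table lists Hspa1b as a synonym of Hspa1a, and hybridisation cannot separate these near-identical genes.

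Hspa8, the constitutive cytosolic HSP70, had a level of 102.2 in the control culture and 172.6, 178.5 and 196.3 at the 3 doses. Its log2 differences of 0.76, 0.80 and 0.94 (spot error 0.20 each) stayed under 2-fold, and 4355, 4108 and 3913 features had larger ones. Its 4 probes ran from 0.76 to 1.03, from 0.80 to 0.86 and from 0.56 to 0.94. With spike-in scaling its difference at 0.009% was -0.24, the only difference from the control among the 10 genes to change direction in any setting run. Within an array, where scaling cancels, Hspa1a exceeded Hspa8 in log2 difference by 4.68 ± 0.22, 6.50 ± 0.22 and 7.59 ± 0.22 (spot error) at the 3 doses.

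Hsph1, whose product resets HSP70 by exchanging its nucleotide, had a level of 1.01 in the control culture and 6.06, 14.0 and 19.5 at the 3 doses. Its log2 differences of 2.58, 3.79 and 4.27 (spot error 0.21 each) were exceeded by 248, 73 and 46 features. With spike-in scaling they were 2.39, 3.24 and 3.09, highest at 0.006%. The difference from Hspa8 within an array grew over the doses, at 1.82, 2.98 and 3.33 (spot error 0.29 each).

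Bag3, which links HSP70 clients to small heat shock proteins and to autophagy, was at 119.6 in the control culture and at 276.5, 394.4 and 475.7 at the 3 doses. Its log2 differences were 1.21, 1.72 and 1.99 (spot error 0.20 each), and each higher dose gave a higher level under 75th percentile scaling. With spike-in scaling the difference at 0.009% was 0.81, under 2-fold.

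Hsp90aa1, the stress-inducible cytosolic HSP90, had a level of 91.3 in the control culture and 295.5, 322.5 and 320.1 at the 3 doses. Under 75th percentile scaling its log2 differences of 1.69, 1.82 and 1.81 (spot error 0.20 each) were nearly equal. The step between 0.009% and 0.006% was -0.01. The 4 probes of the gene ran from 1.69 to 2.14, from 1.82 to 2.53 and from 1.81 to 2.47 at the 3 doses, and the brightest probe, used here, gave the lowest difference of the 4 at each dose. With array median scaling the brightest probe gave 1.55, 1.51 and 1.25. With spike-in scaling it gave 1.51, 1.28 and 0.63, the last under 2-fold, and both fell with dose.

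Hspe1 (HSP10) and Hspd1 (HSP60) make the lid and the barrel of the mitochondrial chaperonin and share the upstream stretch printed above. Hspe1 was at 84.7 in the control culture and at 191.5, 253.4 and 320.6 at the 3 doses. Hspd1 was at 65.3 in the control culture and at 200.8, 214.2 and 198.4 at the 3 doses. Under 75th percentile scaling Hspe1 thus had its highest level at 0.009% and Hspd1 at 0.006%, and these doses moved with the scaling. The log2 differences of Hspe1 were 0.99, 1.04 and 0.74 with spike-in scaling and 1.03, 1.27 and 1.36 with array median scaling. Those of Hspd1 were 1.44, 1.17 and 0.43 with spike-in scaling and 1.48, 1.40 and 1.04 with array median scaling, highest at 0.003% with both.

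The log2 differences from the control were 1.18, 1.58 and 1.92 for Hspe1 and 1.62, 1.71 and 1.60 for Hspd1 (spot error 0.20 each). Within an array, Hspe1 minus Hspd1 was -0.45, -0.13 and 0.32 (spot error 0.29 each), with the brightest probe of each gene. With the Hspd1 probe of the largest difference (2.26 at 0.009%, against 1.92 for Hspe1) Hspd1 stays above Hspe1, so the order of the pair at 0.009% depends on the probe. Measured between 0.009% and 0.003% this gap was 0.76 ± 0.29 (spot error), a value that no scaling of whole arrays can move. The lowest of the 4 Hspd1 probes was at -0.08 for 0.009% against 0.003%, and the 4 ran from 1.60 to 2.26 for 0.009% against the control.

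Among the small heat shock proteins, Hspb1 (HSP27) and Hspb8 (HSP22, the partner of BAG3 in selective autophagy) differed in both size and shape. Hspb1 was already at 99.0 in the control culture and at 133.5, 181.4 and 226.1 at the 3 doses. Its log2 differences of 0.43, 0.87 and 1.19 (spot error 0.06 each) came from 10 spots of 1 probe, whose SD was 0.01 to 0.04 on the log2 scale. In raw intensity it was at 27410 at 0.009%, where the scaling value was smaller, against 28674 at 0.006%, and with spike-in scaling its difference at 0.009% was 0.01.

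Hspb8 was at 1.02 in the control culture and at 6.49, 7.97 and 6.22 at the 3 doses. Its log2 differences of 2.66, 2.96 and 2.60 (spot error 0.20 each) were slightly smaller at 0.009% than at 0.003%, and the step between 0.009% and 0.006% was -0.36. The gap to 0.003% was wider with array median scaling (2.52, 2.65 and 2.04) and with spike-in scaling (2.48, 2.42 and 1.43). Within an array Hspb8 minus Bag3, its autophagy partner, was 1.46, 1.24 and 0.61 (spot error 0.29 each), and Hspb8 minus Hspb1 was 2.23, 2.09 and 1.41 (spot error 0.21 each).

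Zfand2a encodes AIRAP, a proteasome-associated zinc finger protein known from the response to arsenite. Its level was 0.639 in the control culture and 9.26, 16.4 and 20.7 at the 3 doses. Its log2 differences of 3.86, 4.68 and 5.02 (spot error 0.21 each) were exceeded by 39, 18 and 19 features, and were the largest of the 10 genes after those of Hspa1a at each dose. With normexp they were 3.16, 3.88 and 4.11. With spike-in scaling they were 3.67, 4.14 and 3.84, highest at 0.006%.

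**Figure D2:**
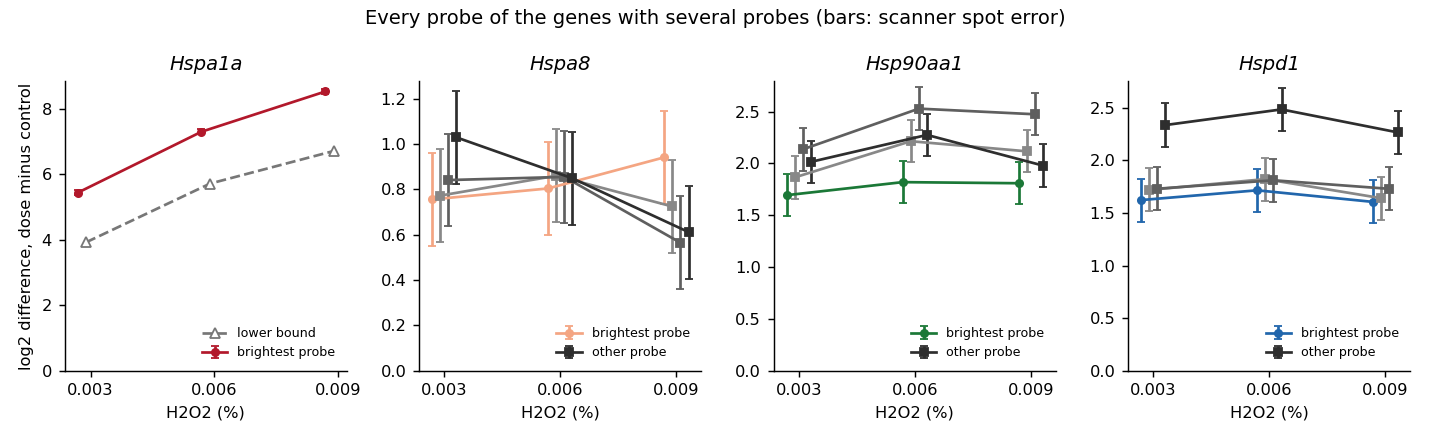
Log2 difference from the control for every probe of the genes with more than 1 probe, at each H2O2 dose, with bars for the spot error. All probes lie above 0, the second Hspa1a probe is a lower bound because it was dim in the control, and the probes of Hspd1 and Hsp90aa1 spread by up to 0.77 and 0.71.

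The comparison of 0.009% with 0.003% H2O2 set the genes apart by dose. At least 2-fold higher at 0.009% were 3 genes, Hspa1a (8.55-fold), Hsph1 (3.23-fold) and Zfand2a (2.24-fold), against 12.3% of all features and 8.78% of named genes. Bag3, Hspb1 and Hspe1 were at 0.78, 0.76 and 0.74 in log2 difference. With the brightest probes, Hspa8 (0.19), Hsp90aa1 (0.12), Hspd1 (-0.02) and Hspb8 (-0.06) lay within their spot error of 0.20. Over all its probes Hspa8 ran from -0.42 to 0.19, the probe used here being the only one above 0, and Hsp90aa1 ran from -0.04 to 0.34. Of the 10 genes 0 were at least 2-fold lower, against 5.31% of all features and 5.56% of named genes. The median of the 10 genes was 0.75, and that of all features 0.16. This comparison too depends on scaling: with array median scaling every value is lower by 0.42 and with spike-in scaling by 0.99, which leaves 2 genes and 1 gene at least 2-fold higher, and with spike-in scaling Hspd1 and Hspb8 at least 2-fold lower.

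**Figure D3:**
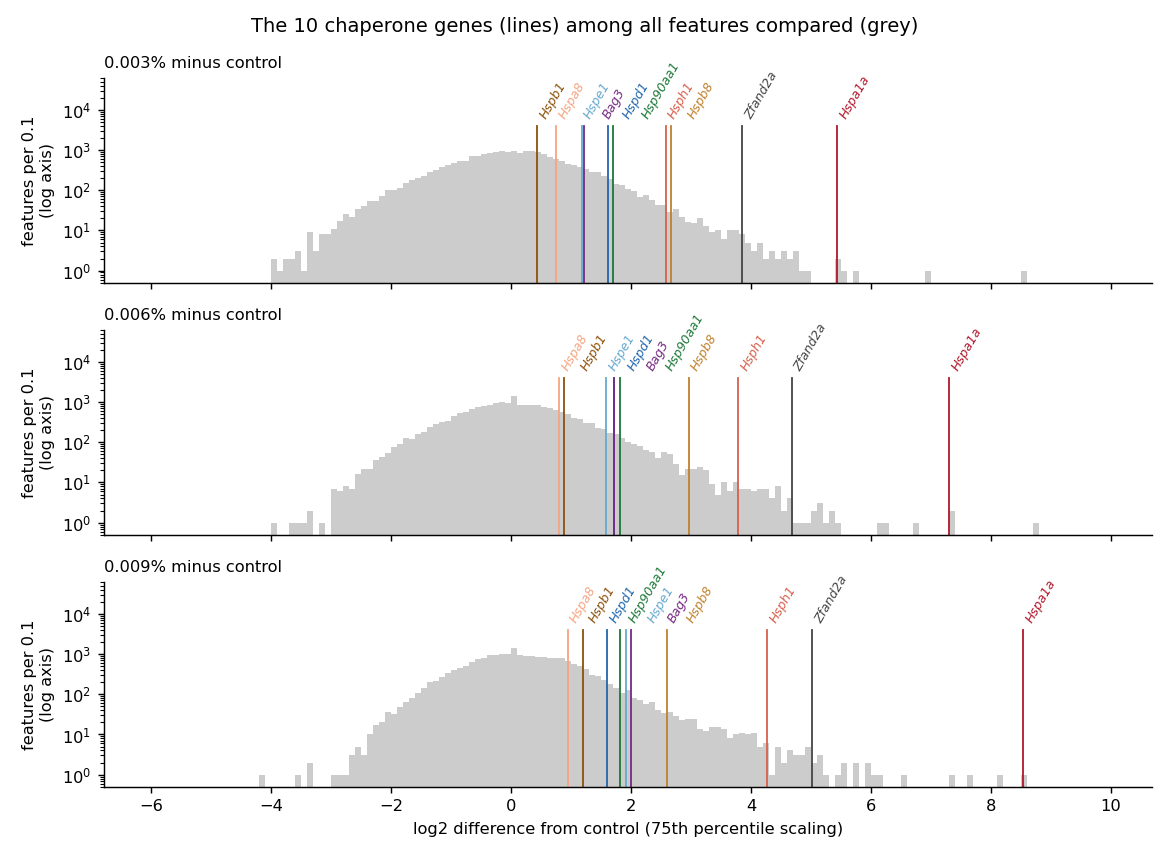
Distribution of the log2 difference from the control over all features at each H2O2 dose, with the 10 genes marked. Most of the 10 lie in the right tail, Hspa1a at the far right (8.54 at 0.009%), and the lowest of the 10 is Hspb1 at 0.003% (0.43) and Hspa8 at 0.006% and 0.009% (0.80 and 0.94).

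A straight line over the 4 doses was the test made, and it was fitted with limma to 22352 features on 4 arrays with 2 residual degrees of freedom. It called 0 features (0.0%) and 0 of the 10 genes at a Benjamini-Hochberg adjusted p of 0.05. The adjusted p of the 10 genes ran from 0.258, the lowest of any feature, to 0.434. At an unadjusted p under 0.05 were 6 of the genes, Hspa1a, Hsph1, Bag3, Hspb1, Hspe1 and Zfand2a, and 3095 features (13.8%). Their fitted slopes per 0.003% H2O2 were 2.75 ± 0.50 for Hspa1a, 1.40 ± 0.26 for Hsph1, 1.59 ± 0.42 for Zfand2a, 0.65 ± 0.15 for Bag3, 0.62 ± 0.15 for Hspe1 and 0.40 ± 0.11 for Hspb1 (log2, SE, n = 4 arrays in a limma fit). These SEs rest on the residuals of the line, where a bend over dose and variation between cultures or arrays cannot be told apart. Hspb8, Hspd1, Hsp90aa1 and Hspa8, with an unadjusted p between 0.070 and 0.097, missed the unadjusted threshold.

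The wider chaperone network was read from lists of related genes, 92 genes other than the 10, of which 52 were measured. At least 2-fold higher were 17, 17 and 11 of them at 0.003%, 0.006% and 0.009% H2O2, and 1, 0 and 0 were lower, all with 75th percentile scaling. Of all features 14.9%, 14.9% and 16.5% were at least 2-fold higher at these doses. With array median scaling 11, 3 and 0 of the 52 were at least 2-fold higher, and with spike-in scaling 8, 2 and 0, so at 0.009% no call of this network outside the endoplasmic reticulum holds under either, and 2 and 21 genes were at least 2-fold lower there. Their median log2 difference was 0.63, 0.65 and 0.40. For 0.009% against 0.003% H2O2, 0 of the 52 were at least 2-fold higher and 1 was lower, with a median of -0.13. The shares of all features there were 12.3% and 5.31%. The 10 genes and these 52 thus had medians of 0.75 and -0.13 in that comparison. Both sets were chosen with earlier results of these data known, so this contrast is a description and not a test.

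Of other genes reported as HSF1 targets, 7, 8 and 8 of 12 measured reached 2-fold, and their median log2 difference was 1.02, 1.16 and 1.20. Some of these genes, Dnaja1 and Tcp1 among them, are counted again in the lists that follow, so the counts of the lists cannot be added. Dnaja1, an HSP40 that delivers clients to HSP70, was at 1.16, 1.39 and 1.39 in log2 difference, and Tcp1, a subunit of the cytosolic chaperonin TRiC, at 1.50, 1.57 and 1.36. The polyubiquitin gene Ubb was at 0.76, 1.18 and 1.50. Neither Dnajb1, an HSP40 strongly induced by heat, nor Hsf1 itself had a named probe.

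The cytosolic J-domain proteins, the family of HSP40, reached 2-fold in 6, 6 and 3 of 10 measured genes, and their median was 1.17, 1.14 and 0.58. Dnajb4 was at 1.19, 1.26 and 1.22, and Dnajc21 at 1.57, 1.75 and 1.32. For HSP90 and its co-chaperones the counts were 5, 5 and 4 of 12, with medians of 0.84, 0.73 and 0.36. Hsp90ab1, the constitutive HSP90, was at 1.02, 1.20 and 1.35, its cochaperone Stip1, which bridges HSP70 and HSP90, at 1.02, 1.11 and 1.13, and the HSP90-associated Cacybp at 1.08, 1.31 and 1.30. Within TRiC and prefoldin, 4, 3 and 1 of 7 were at least 2-fold higher, with Cct4 at 1.18, 1.17 and 0.77 and Cct6a at 1.37, 1.30 and 0.78.

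Relatives of the HSP70, BAG and mitochondrial genes follow. None of 4 measured HSP70 relatives reached 2-fold at any dose, with Hspa4 (an HSP110) at 0.21, 0.65 and 0.97, Hspa13 at 0.57, 0.26 and -0.20 and Hspa14 at -0.60, -0.65 and -0.35. None of 3 other BAG genes did, with Bag4 at 0.68, 0.26 and -0.20, Bag5 at 0.58, 0.53 and -0.08 and Bag6 at -0.02, -0.14 and -0.35. Of 5 other mitochondrial chaperones and proteases 0 were at least 2-fold higher, the HSP90 homologue Trap1 was at -1.06, -0.80 and -0.53, the HSP40 Dnaja3 at -0.40, -0.49 and -0.25 and the protease Lonp1 at 0.21, 0.09 and -0.29. Hspa9, the mitochondrial HSP70, had no named probe.

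Of 4 other small heat shock proteins measured, 0, 0 and 1 reached 2-fold. Cryab, a widely expressed alpha-crystallin, was at 0.19, 0.61 and 0.93, Cryaa at 0.18, 0.99 and 1.18 from a low level of 0.07 to 0.17, and Hspb6 at -0.59, -0.57 and -0.26. Of 3 measured heat shock factors and regulators, 1, 1 and 0 reached 2-fold: Hsf2 was at 1.04, 0.83 and 0.40, Hspbap1 at 0.92, 1.12 and 0.80 and Hsbp1 at -0.18, -0.14 and -0.12.

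Among chaperones of the endoplasmic reticulum, 4, 4 and 3 of 11 were at least 2-fold higher (medians 0.49, 0.59 and 0.30). The shares of all features were 14.9%, 14.9% and 16.5%. Hspa5 (BiP) was at 1.48, 1.65 and 1.37, Hsp90b1 at 1.04, 1.35 and 1.00, and Dnajb9, an ER HSP40, at 2.86, 3.13 and 2.62. The counts of this list were 2, 3 and 1 with array median scaling and 2, 2 and 1 with spike-in scaling. With spike-in scaling 3 of the 11 were at least 2-fold lower at 0.009%. Under spike-in scaling at 0.009% the differences of Cct4, Cct6a, Cryab, Hspa4, Hspbap1 and Hsf2 were -0.41, -0.39, -0.25, -0.20, -0.38 and -0.78, and those of Stip1 and Hsp90b1 -0.049 and -0.17, so their direction at that dose is not settled. Hsf2 was also below 0 with array median scaling (-0.16).

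**Figure D4:**
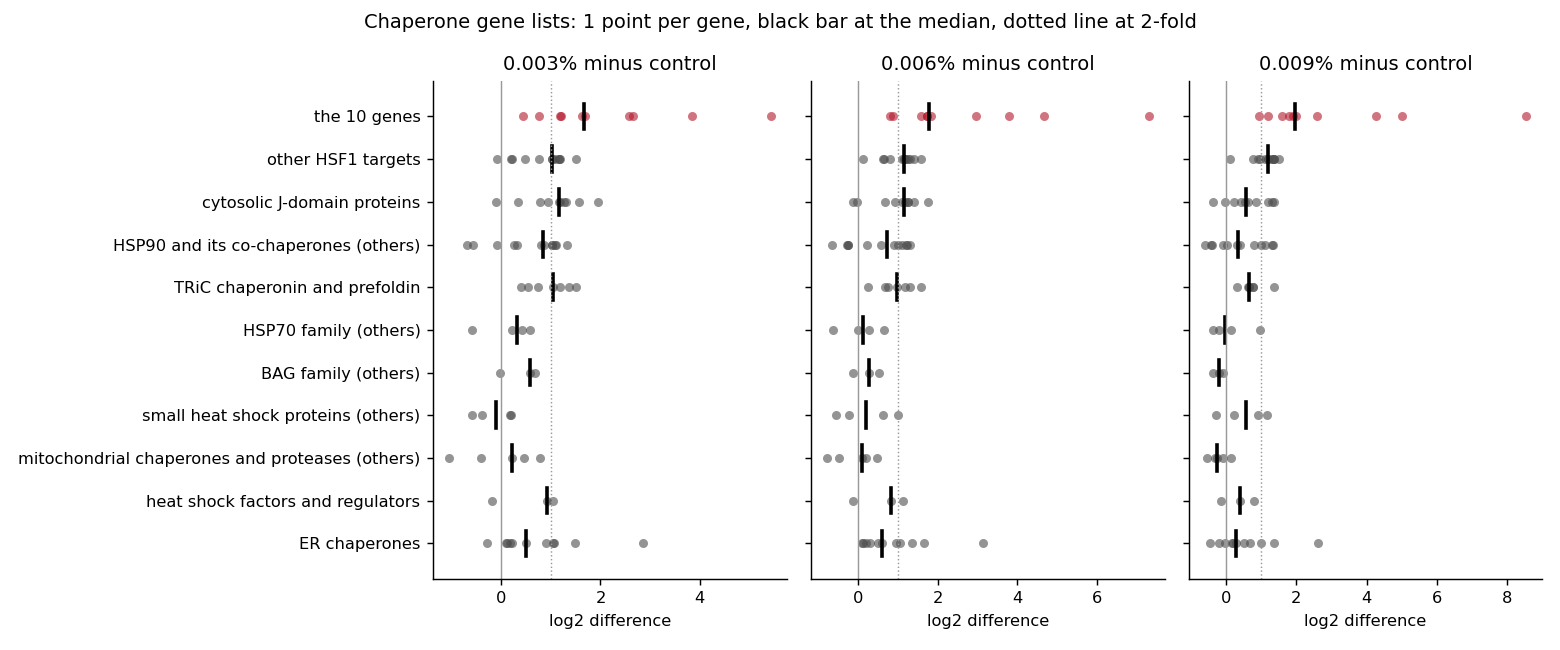
Log2 difference from the control of each measured gene in the 10 genes and in the related lists, at each H2O2 dose, with the list median. The 10 genes have the highest median at each dose (1.66, 1.77 and 1.96), followed by the other HSF1 targets at 0.006% and 0.009% (1.16 and 1.20) and the J-domain proteins at 0.003% (1.17). The genes and lists were chosen with earlier results of these data known.

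Genes beyond the 10 that hold the 3-unit element in their window were counted in the same way, as a description. Of these, 8 of 25 at 0.003%, 7 of 24 at 0.006% and 5 of 25 at 0.009% H2O2 were at least 2-fold higher, that is 32.0%, 29.2% and 20.0%, against 16.2%, 14.7% and 13.3% of measured genes without the element. The 5 genes at 0.009%, named after their values were seen, were Osgin1, a growth regulator of the oxidative stress response (log2 difference 3.93), Dnaja1 (1.39), Adora2b, an adenosine receptor (1.18), and Oprpn and Spata6l, both dim in the control culture and so bounds of at least 1.27 and 1.06. Of the genes with the element 4, 2 and 0 were at least 2-fold lower at the 3 doses, that is 16.0%, 8.33% and 0%, against 11.5%, 7.66% and 4.93% of genes without it. These shares are for 75th percentile scaling.

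The nearest profiles were sought among 4977 named genes well above background on all 4 arrays, by Euclidean distance over the 3 log2 differences from the control. Nearest to Hspa1a was Ampd1, an AMP deaminase, at a distance of 1.37 with differences of 5.73, 6.72 and 7.33, followed by Hmox1 (haem oxygenase, distance 2.71) and Atf3 (a stress transcription factor, distance 3.46). With the background as subtracted by the scanner software, even its nearest neighbour lay further away than those of the other 2 genes examined. With the normexp background Ampd1, Hmox1 and Atf3 were at distances of 1.54, 1.80 and 1.58. The neighbours of Hsph1 given next were then all further from Hsph1 than Ampd1 was from Hspa1a. Hsph1 had Gsg1, Hamp and Reep2 at distances of 0.30, 0.48 and 0.59, which were 1.85, 2.39 and 1.89 with the normexp background. Hspb8 had Jmjd6, Cym and Sde2 at 0.07, 0.09 and 0.17, and at 0.53, 1.23 and 1.21 with normexp. All 3 had their highest value at 0.006%, as Hspb8 itself, which the choice by distance nearly fixes.

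**Figure D5:**
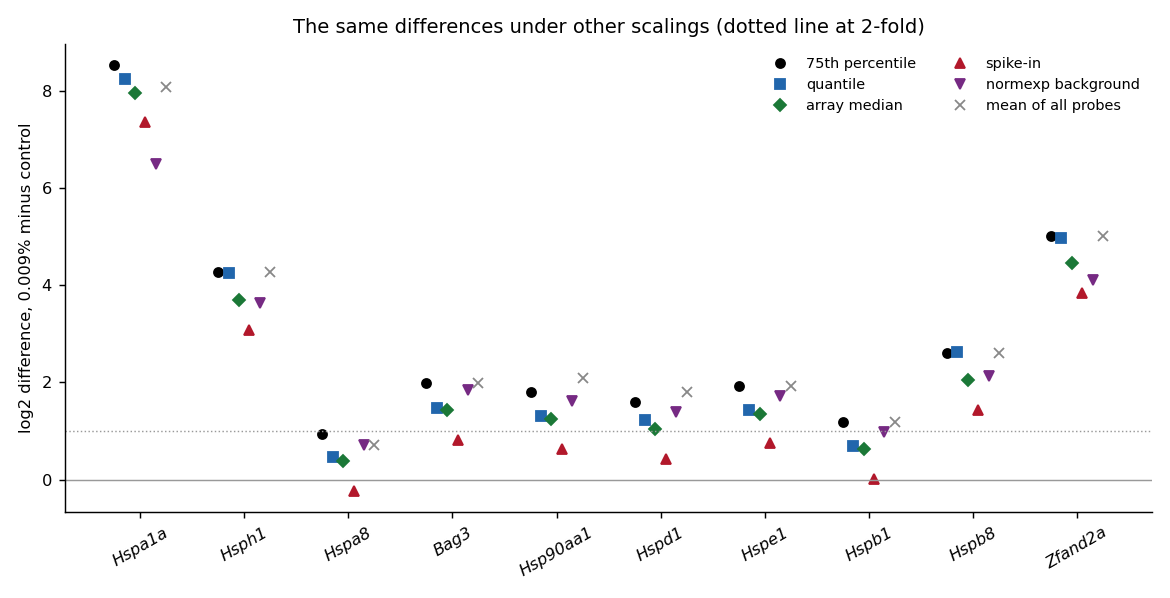
Log2 difference of each of the 10 genes at 0.009% H2O2 against the control under each processing setting. Points stand for settings, and the dotted line marks 2-fold. Spike-in scaling gives the lowest value for 9 genes, down to -0.24 for Hspa8, and the normexp background gives the lowest for Hspa1a (6.51).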

How the data were processed

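Total RNA of 4 NRK-52E cultures was measured on 1 Agilent slide, 1 single-colour array per dose. The authors read it with Agilent Feature Extraction (version 10.7.3.1, protocol GE1_107_Sep09) on array design 014879, annotated on rn4. Per the file headers, the software gave for each spot a background-subtracted intensity and its error, and arrays were not scaled to each other. A linear ratio is held by the authors' deposited table, the mean processed signal of a probe over the array's median.

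Here the log2 intensity of a probe's spots, flagged outliers left out, was averaged, and that of the 75th percentile of the same array was subtracted. RefSeq accessions named 10834 of 41012 probes (26.4%) as 8963 genes of the RefSeq table. The brightest probe stood for a gene, and unnamed probes of 1 accession counted as 1 feature. A feature well above background on 1 of 2 arrays was raised to the floor of the dim array and gives a bound. A difference of at least 2-fold was the rule of size. The dose trend used limma 3.58.1 (R 4.3.3) and Benjamini-Hochberg adjustment. The number of arrays limits the precision.

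The genes and lists were chosen with earlier results of these data known. Named beside the 10 genes were Hsf1, Dnajb1, Hsp90ab1 and Hspa5, from each list the 3 measured genes that differed most, in either direction, at 0.009%, and the 3 nearest profiles of Hspa1a, Hsph1 and Hspb8. Alternatives were array median, quantile and spike-in scaling, normexp with an offset of 50, the deposited table, the mean of all probes and a stricter background filter. Normexp used the median spot signal, not the mean signal that was planned.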

Additional observations from a re-analysis of the deposited data

How the results depend on the processing

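No paired analysis was possible because each dose had 1 array and the labels carry no shared replicate numbers. Every alternative but spike-in scaling left 8 or 9 of the 10 genes at least 2-fold higher at each dose against the control. With spike-in scaling 7 and 8 were at 0.003% and 0.006%, 4 at 0.009% (9 with the 75th percentile), and for 0.009% against 0.003% 1 (3 with the 75th percentile), with 2 lower. The cause was not tested, and the scaling itself lowers each log2 difference at 0.009% by 1.18. Of 188 differences of single named genes, 34 changed sign with spike-in scaling, 20 of them for 0.009% against 0.003% and 9 for 0.009% against the control, 15 did with array median scaling and 2 to 15 in the other settings. Of these 2 had been at least 2-fold, both with spike-in scaling at 0.009%, Stip1 (-0.049) and Hsp90b1 (-0.17). The counts of related genes in each setting were added after seeing the data. Array median scaling lowers every difference by 0.15, 0.31 and 0.56 at the 3 doses, and 0.42 for 0.009% against 0.003%, and the deposited table follows it closely. The median of all features shifts by -0.16 with quantile normalization at 0.009%. The trend over dose called 0 of the 10 genes in all 8 settings, where the lowest adjusted p in limma was 0.107 to 0.397 and 2 to 6 genes had an unadjusted p under 0.05. With 1 culture per dose, the spot errors and probe ranges show the spread between spots and probes only, and nothing of the spread between cultures. The p-values of the trend rest on the residuals of a straight line. There a bend over dose and variation between cultures or arrays cannot be told apart.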
